A study of Mus musculus with 26 samples.

Results

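The Hoxa cluster genes described here are 9 neighbouring homeobox genes of mouse chromosome 6: Hoxa2, Hoxa3, Hoxa4, Hoxa5, Hoxa6, Hoxa7, Hoxa9, Hoxa10 and Hoxa11. They were taken by Ensembl ID from a deposited table of 48795 genes, and all 9 had a row. RNA was measured in 24 libraries of 2 mouse models of acute myeloid leukaemia, both made from C57BL/6 myeloid progenitors, with 3 libraries in each of 8 groups. H9M cells were transformed with Hoxa9 and Meis1, and MN1 cells with MN1. Each model was compared as control (CTL) or knockout (KO) of LSD1, the histone demethylase encoded by Kdm1a, without ATRA or with 1 µM ATRA (all-trans retinoic acid). Knockout was induced with 0.1 µM 4-hydroxytamoxifen for 72 h. The strain label reads CreERT2-;LSD1TM1Schuele for all 24 libraries, knockouts included. No source used here says whether controls also received 4-hydroxytamoxifen. All cells grew with added IL3, IL6 and SCF. The labels do not say whether the 3 libraries of a group are separate cultures, so p-values measure only the spread between these libraries. H3K4me2, a mark of active and poised promoters and enhancers, was measured by chromatin immunoprecipitation in lineage-negative bone marrow of untreated C57BL/6 mice labelled GFI1-WT and GFI1-KD, with 1 library each.

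Hox genes encode homeodomain transcription factors that bind DNA together with the TALE cofactors of the PBX and MEIS families. In blood formation the Hoxa genes are active in stem and early progenitor cells and are shut down as cells mature. Hoxa7, Hoxa9 and Hoxa10 are among the Hox genes most often tied to myeloid leukaemia, where the MLL, menin and DOT1L proteins keep the cluster active and Polycomb proteins oppose them.

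The 4 members called in MN1 knockouts, described below, lie side by side on the minus strand. To show what stands in front of each, the 250 bases before the RefSeq start are printed here from the GRCm38.p6 table (the build of the deposited files), 5′ to 3′. Capitals mark the letters TTTATG, the core recognised by CDX factors, which are known activators of Hox genes.
Hoxa7, chr6:52218574-52218823: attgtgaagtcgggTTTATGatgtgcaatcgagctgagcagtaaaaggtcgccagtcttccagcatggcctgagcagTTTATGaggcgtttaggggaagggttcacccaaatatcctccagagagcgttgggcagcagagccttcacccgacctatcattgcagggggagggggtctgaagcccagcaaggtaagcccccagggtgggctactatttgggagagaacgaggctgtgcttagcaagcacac
Hoxa9, chr6:52227371-52227620: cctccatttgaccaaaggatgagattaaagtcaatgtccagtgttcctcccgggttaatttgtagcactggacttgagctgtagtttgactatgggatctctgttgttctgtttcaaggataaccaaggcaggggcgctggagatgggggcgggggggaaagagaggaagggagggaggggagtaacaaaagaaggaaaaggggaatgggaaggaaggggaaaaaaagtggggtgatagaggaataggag
Hoxa10, chr6:52240855-52241104: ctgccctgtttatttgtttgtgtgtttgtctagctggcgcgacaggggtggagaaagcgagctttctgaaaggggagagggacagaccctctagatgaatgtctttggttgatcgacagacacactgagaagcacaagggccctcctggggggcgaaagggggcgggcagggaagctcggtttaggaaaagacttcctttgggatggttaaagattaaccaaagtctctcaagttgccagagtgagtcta
Hoxa11, chr6:52245811-52246060: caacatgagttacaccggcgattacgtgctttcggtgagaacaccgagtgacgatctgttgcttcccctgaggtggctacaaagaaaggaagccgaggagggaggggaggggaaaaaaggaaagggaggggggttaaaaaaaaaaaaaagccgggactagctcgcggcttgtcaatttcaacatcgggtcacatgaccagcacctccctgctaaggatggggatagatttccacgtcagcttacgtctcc
A search on both strands covered 6 motifs: the CDX core shown in capitals, the letters AGGTCA bound by retinoic acid receptors, the HOX and PBX site TGATTNAT, the GFI1 site TAAATCAC, the TATA box with the letters TATAAA, and the CCAAT box. Hoxa7 held TTTATG at 236 and at 173 bases before its start. No match of these 6 motifs lay in the windows of Hoxa9, Hoxa10 or Hoxa11, which says only that these letters are not in these 250 bases. Among the 32851 promoters of the table, 10.8% held the CDX core on either strand, 14.0% the retinoic acid receptor letters, 2.82% the HOX and PBX site, 0.514% the GFI1 site, 12.4% the TATA box and 33.8% the CCAAT box. Cdx1 and Cdx4 had no count in any of the 24 libraries, and Cdx2 had 0 to 2 counts per library. The windows held 54.8% G and C in Hoxa7, 49.6% in Hoxa9, 51.6% in Hoxa10 and 52.0% in Hoxa11, beside a median of 52.4% over all promoters. Of the other members, Hoxa2 held 1 match to the HOX and PBX site and 4 to the CCAAT box, and Hoxa5 and Hoxa6 held 1 CCAAT box each. Hoxa10 has a further start in the table, whose window held 1 match to the CCAAT box and 1 to the TATA box letters. The latter was TTTATA, on the opposite strand at 160 bases before that start. Of the 9 members, 8 had a promoter in the table; Hoxa4 did not.

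Library totals ran from 22402558 to 32674685 counts. Kdm1a fell from 139 ± 1.25 CPM (counts-per-million of the library total, mean ± SD, n = 3) in H9M controls to 0.962 ± 0.0313 CPM in H9M knockouts, and from 191 ± 2.95 to 1.42 ± 0.149 CPM in MN1 knockouts (adjusted p = 1.34e-35 in MN1 cells). In the H9M knockout with ATRA it stood higher, at 11.1 ± 0.654 CPM. The cells carried RNA of the myeloid genes Ptprc, Mpo, Elane, Csf1r, Csf3r, Itgam, Spi1 and Cebpe in each group. Their sum differed between the models, at 8514 to 8617 CPM in H9M controls and 1404 to 1455 CPM in MN1 controls. In these groups 6 mast cell genes summed to 17.3 to 18.6 and 1052 to 1122 CPM. Megakaryocyte genes summed to 2.54 to 3.26 and 104 to 108 CPM. Erythroid and stromal sums were also higher in MN1 controls. The part of these differences in the Hoxa levels was not tested. Markers of lymphoid cells were low: 6 B cell genes summed to 0.196 to 1.58 CPM per library, and 6 T and NK cell genes to 15.8 to 47.5 CPM, nearly all from Nkg7 and Lck, with Cd8a at 0 in each group. The library tags in the labels share a code among all H9M libraries and a different code among all MN1 libraries. The labels do not say what this code stands for, and it cannot be told apart from the model. Of 14663 genes that passed the filter on low counts, all 9 members were part; 8 of them passed through their MN1 libraries and Hoxa9 in both models, so their presence in the test is no result. Calls below are edgeR quasi-likelihood tests, two-sided, at a Benjamini-Hochberg adjusted p under 0.05 over those 14663 genes. Counts are not scaled to gene length, so levels are compared between groups and not between genes.

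The cluster was transcribed in MN1 cells and nearly silent in H9M cells, except for Hoxa9. In H9M cells, Hoxa7, Hoxa10 and Hoxa11 had 0 counts in each of the 12 libraries. Hoxa2, Hoxa3, Hoxa4, Hoxa5 and Hoxa6 had 0 to 4 counts per H9M library. All 9 members were read in each of the 12 MN1 libraries. Hoxa10 ranged from 169 to 220 CPM there, with a median of 210 CPM. Hoxa11 ranged from 71.6 to 105 CPM, Hoxa9 from 65.1 to 85.1 CPM and Hoxa7 from 13.9 to 28.8 CPM. Without knockout or ATRA, the H9M and MN1 libraries of each member did not overlap. For the members that passed the filter through their MN1 libraries this is no separate result. The share of all genes without overlap was not counted.

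Against a floor of 3 counts over the 3 H9M control libraries, Hoxa10 was at least 5692-fold higher in MN1 controls. The same bound was at least 2653-fold for Hoxa11 and at least 566-fold for Hoxa7. Hoxa5, which had 439 counts over the MN1 controls and 2 over the H9M controls, gave a ratio of 199 with a lower 95% counting limit of 54.6. These limits and floors cover counting error only: without molecular identifiers, reads cannot be taken as separate molecules. Since these 8 genes entered the test through their MN1 libraries, no count of calls is given for them between the models. In the knockouts Hoxa2 was nearest, with 19 counts over the MN1 and 5 over the H9M libraries.

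Hoxa9 went the other way. H9M controls had 27861, 26992 and 27548 CPM and MN1 controls 85.1, 76.5 and 78.0 CPM. The H9M libraries thus stood far above all MN1 libraries, with a log2 fold change of -8.51 ± 0.06 (SE) for MN1 against H9M (adjusted p = 5.86e-38; 73.5% of all genes were called). Counts in H9M cells may come from the Hoxa9 copy used to transform them, and cannot be told apart from those of the gene in the cluster. Its neighbours Hoxa7 and Hoxa10 were at 0 in the same libraries.

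**Figure D1:**
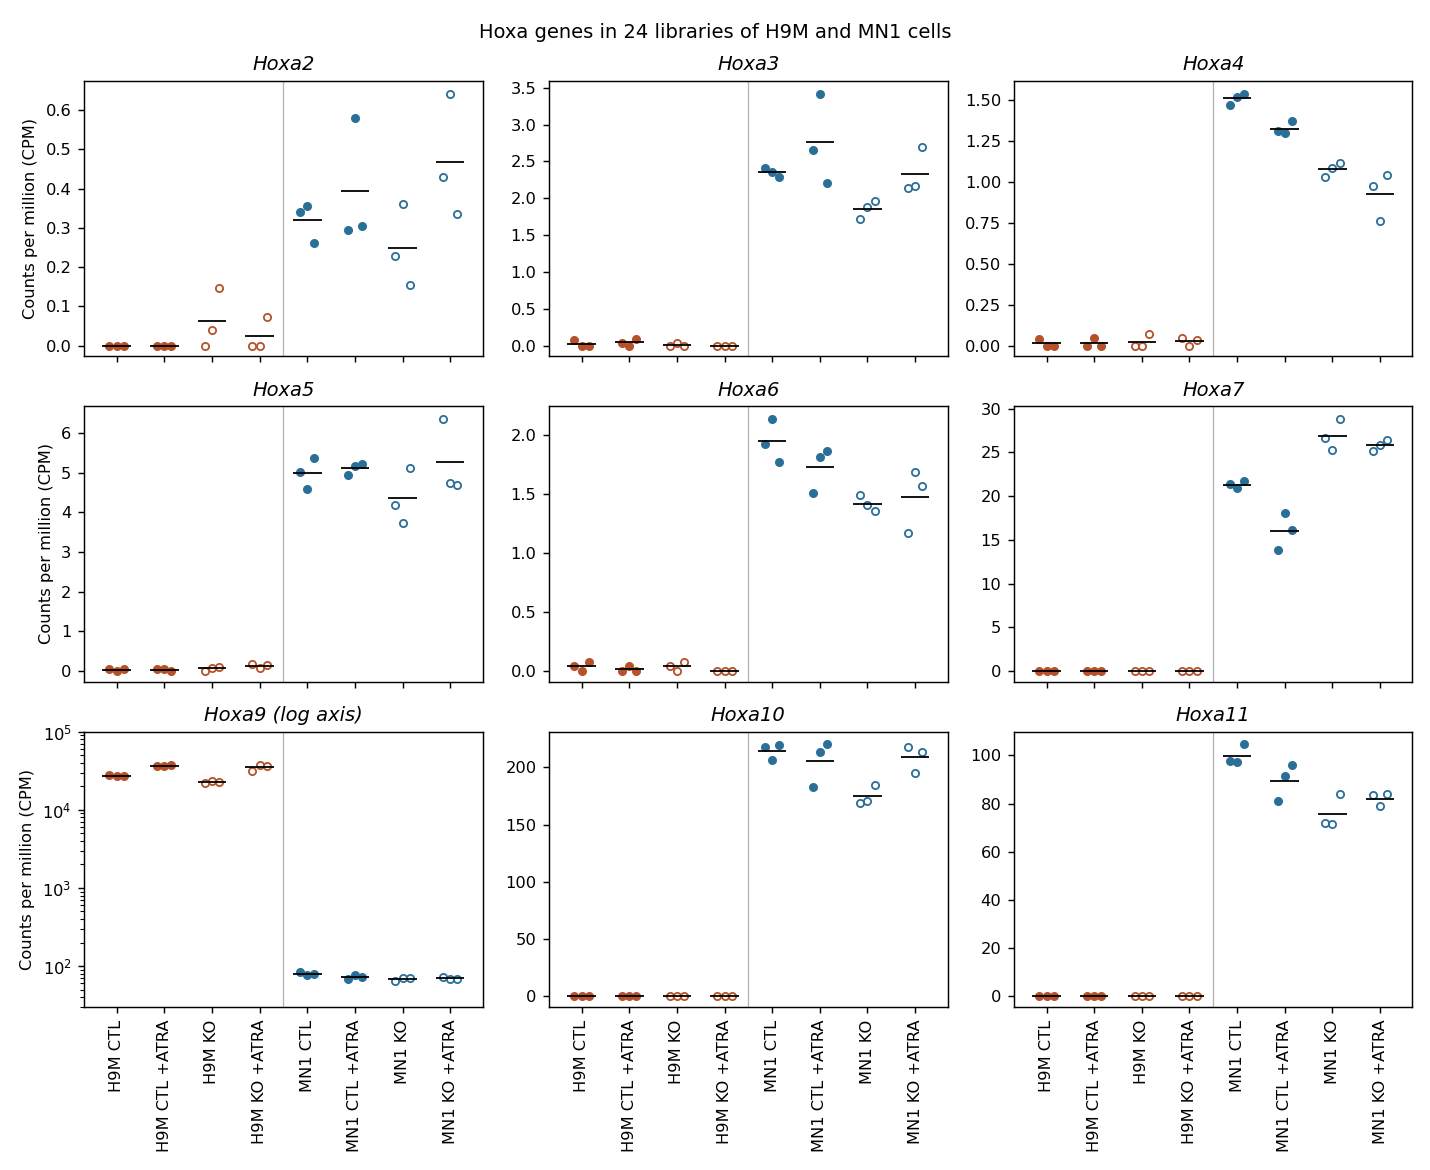
CPM of each member in 24 libraries (points; bars are group means, n = 3), with a log axis for Hoxa9 only. H9M libraries (brown, left) lie at or near 0 except for Hoxa9, which sits between 22290 and 37779 CPM; filled points are controls and open points knockouts.

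In MN1 cells without ATRA, loss of LSD1 moved the cluster's neighbours in opposite directions: Hoxa7 rose, and Hoxa9, Hoxa10 and Hoxa11 fell. The 4 called members compare with 55.0% of all genes tested that were called in this comparison, 28.7% higher and 26.3% lower, so the share of members is near that of all genes. Changes of the called members were below 2-fold.

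Hoxa7, a homeobox factor used as a marker of leukaemias with an active Hoxa cluster, had 21.4, 20.9 and 21.7 CPM in MN1 controls and 26.6, 25.3 and 28.8 CPM in MN1 knockouts. Each knockout library was above each control library. The rise was 26.2% in mean CPM, with a log2 fold change of 0.33 ± 0.08 (adjusted p = 0.000952).

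Hoxa9, the best known leukaemia gene of the cluster, had 85.1, 76.5 and 78.0 CPM in MN1 controls and 65.1, 69.4 and 70.0 CPM in MN1 knockouts. The groups did not overlap. Its log2 fold change was -0.23 ± 0.05 (adjusted p = 0.000362).

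Hoxa10, a factor of early myeloid progenitors, had 218, 207 and 220 CPM in MN1 controls and 169, 171 and 184 CPM in MN1 knockouts. The groups did not overlap, and the mean fell by 18.6%. Its log2 fold change was -0.30 ± 0.06 (adjusted p = 0.000108).

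Hoxa11, better known for limb and uterus development, had 97.6, 97.5 and 105 CPM in MN1 controls and 72.1, 71.6 and 83.9 CPM in MN1 knockouts. The groups did not overlap. Its log2 fold change, -0.40 ± 0.06, was the lowest of the 4 called members (adjusted p = 8.32e-06). Hoxa11os, the antisense gene that overlaps Hoxa11, was at 2.52 ± 0.320 CPM in controls and 2.20 ± 0.309 CPM in knockouts (adjusted p = 0.427). With ATRA it was at 3.27 ± 0.763 CPM in MN1 controls and 2.30 ± 0.442 CPM in MN1 knockouts, and these groups overlapped. Overlap here does not mean that no call was made. Of the 3 noncoding genes of the cluster that were tested, 1 was called lower in that comparison, where 57.2% of all genes were called. Hoxa11os, with 278 counts in controls and 195 in knockouts, had the most counts of the cluster's noncoding genes there. No source used here gives the strand that was counted, so reads from Hoxa11 and Hoxa11os may be mixed.

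The members at the other end of the cluster had few counts and no call in this comparison. Hoxa4 had 1.47, 1.52 and 1.54 CPM in MN1 controls and 1.03, 1.08 and 1.12 CPM in knockouts, with no overlap (log2 fold change -0.49 ± 0.23, adjusted p = 0.0681). Hoxa6 had 1.92, 2.13 and 1.77 CPM in controls and 1.49, 1.40 and 1.35 CPM in knockouts, again with no overlap (-0.46 ± 0.21, adjusted p = 0.0638). Both passed the threshold in a fit of the 12 MN1 libraries alone (adjusted p = 0.0405 for Hoxa4 and 0.0450 for Hoxa6). Hoxa3 stood at 2.35 ± 0.0611 and 1.85 ± 0.127 CPM, also without overlap. Hoxa5 stood at 4.99 ± 0.393 and 4.35 ± 0.713 CPM and Hoxa2 at 0.319 ± 0.0499 and 0.248 ± 0.105 CPM, both with overlap. The adjusted p of Hoxa3, Hoxa5 and Hoxa2 ran from 0.157 to 0.567. The share of all genes without overlap in this comparison was not counted. The span of Hoxa3 covers Hoxa4, Hoxa5 and Hoxa6, so reads from these genes may be mixed.

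Markers of other states moved with the same contrast. The summed level of 6 mast cell genes (Cpa3, Mcpt8, Fcer1a, Ms4a2, Tpsb2 and Cma1; none at 0 in MN1 groups) was 1052 to 1122 CPM in MN1 controls and 1970 to 2008 CPM in MN1 knockouts, and 6 of 6 were called higher. The 8 myeloid genes named above summed to 1404 to 1455 CPM in controls and 2683 to 2776 CPM in knockouts, and 8 of 8 were called higher. Of 6 megakaryocyte genes 5 were called higher and 1 lower, and their sum went from 104 to 108 CPM in controls to 145 to 152 CPM in knockouts. The T and NK cell sum went from 20.7 to 21.6 CPM in controls to 44.2 to 47.5 CPM in knockouts, with 1 of the 2 tested genes called higher and 1 lower and with Cd3e and Cd8a at 0 in both groups. With ATRA the mast cell sum was 840 to 907 CPM in controls and 1402 to 1516 CPM in knockouts, and the myeloid sum 958 to 997 and 1726 to 1909 CPM. Their part in the changes of the Hoxa genes was not tested. These are bulk libraries, in which fewer cells of a type and less RNA per cell cannot be told apart.

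With ATRA, Hoxa7 again rose in MN1 knockouts, while Hoxa9 and Hoxa10 did not pass. Hoxa7 had 13.9, 18.1 and 16.1 CPM in MN1 controls with ATRA and 25.2, 25.9 and 26.4 CPM in knockouts with ATRA. The groups lay far apart, with a mean 61.1% higher and a log2 fold change of 0.67 ± 0.08 (adjusted p = 2.36e-07). Hoxa11 had 81.2, 91.4 and 96.2 CPM in controls with ATRA and 83.5, 79.1 and 83.9 CPM in knockouts with ATRA. Its groups overlapped, and its call (-0.14 ± 0.06, adjusted p = 0.0492) was lost under 4 other ways of scaling, testing or filtering. It was also lost in 5 of 6 fits that left out 1 library (adjusted p from 0.0546 to 0.254), all but the one without MN1 CTL with ATRA replicate 1. Hoxa9 (-0.07 ± 0.05, adjusted p = 0.237) and Hoxa10 (0.00 ± 0.06, adjusted p = 0.985) did not pass. The 2 members called compare with 57.2% of all genes called in this comparison. Among the members with few counts, Hoxa4 was at 1.33 ± 0.0381 CPM in controls with ATRA and 0.926 ± 0.145 CPM in knockouts with ATRA, without overlap (-0.52 ± 0.24, adjusted p = 0.0588); it passed in the fit of the MN1 libraries alone (adjusted p = 0.0351). With no filter on low counts Hoxa9 passed in this comparison too (adjusted p = 0.00575).

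ATRA itself lowered 3 members in MN1 controls, where 21.8% of all genes were called, 11.4% higher and 10.4% lower. Hoxa7 went from 21.4, 20.9 and 21.7 CPM to 13.9, 18.1 and 16.1 CPM, without overlap (log2 fold change -0.44 ± 0.08, adjusted p = 0.000396). Hoxa9 had 67.6, 77.6 and 71.4 CPM with ATRA, a range that reached into that of the untreated controls (-0.17 ± 0.05, adjusted p = 0.0186). Hoxa11 was just below the untreated controls in each of its libraries (-0.18 ± 0.06, adjusted p = 0.0352). The calls of Hoxa9 and Hoxa11 hung on single libraries. Without MN1 CTL replicate 1 the adjusted p was 0.164 for Hoxa9 and 0.0624 for Hoxa11, and without MN1 CTL with ATRA replicate 1 it was 0.135 and 0.220. Hoxa11 also lost its call without MN1 CTL replicate 3 (0.156) or MN1 CTL with ATRA replicate 2 (0.0609), and Hoxa9 without MN1 CTL with ATRA replicate 3 (0.0565).

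In MN1 knockouts ATRA raised Hoxa10, from 169, 171 and 184 CPM to 218, 195 and 213 CPM, with no overlap (0.21 ± 0.06, adjusted p = 0.0101). It was the 1 member called, beside 18.8% of all genes called and 8.42% called higher. Without MN1 KO replicate 2 its adjusted p was 0.0515. Hoxa7 was at 26.9 ± 1.77 CPM without and 25.8 ± 0.590 CPM with ATRA (-0.10 ± 0.08, adjusted p = 0.422).

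The interaction term asks whether the knockout effect differs with ATRA, and 2.78% of all genes were called there. Hoxa10 was called, at 0.30 ± 0.08 on the log2 scale (adjusted p = 0.0447): its knockout effect was -0.30 without ATRA and 0.00 with ATRA. That call was lost when any 1 of 7 libraries was left out, with adjusted p up to 0.124. Hoxa7 had an interaction of 0.34 ± 0.11 that did not pass (adjusted p = 0.133), so its larger rise with ATRA was not shown to differ. Hoxa9 (0.16 ± 0.07) and Hoxa11 (0.26 ± 0.09) did not pass either (adjusted p = 0.346 and 0.146).

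Ordered by mean CPM, the 4 MN1 groups ran KO, KO with ATRA, control, control with ATRA for Hoxa7 (means of 26.9, 25.8, 21.3 and 16.0 CPM); its top 2 groups overlapped and did not differ by test, and the other neighbours did not overlap. For Hoxa10 the order was control, KO with ATRA, control with ATRA, KO (215, 209, 205 and 175 CPM), and each group overlapped with its neighbours. For Hoxa11 it was control, control with ATRA, KO with ATRA, KO (99.9, 89.6, 82.1 and 75.9 CPM), with overlap between the middle 2 groups and between the last 2. For Hoxa9 it was control, control with ATRA, KO with ATRA, KO (79.9, 72.2, 69.6 and 68.1 CPM), with overlap between each pair of neighbours.

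**Figure D2:**
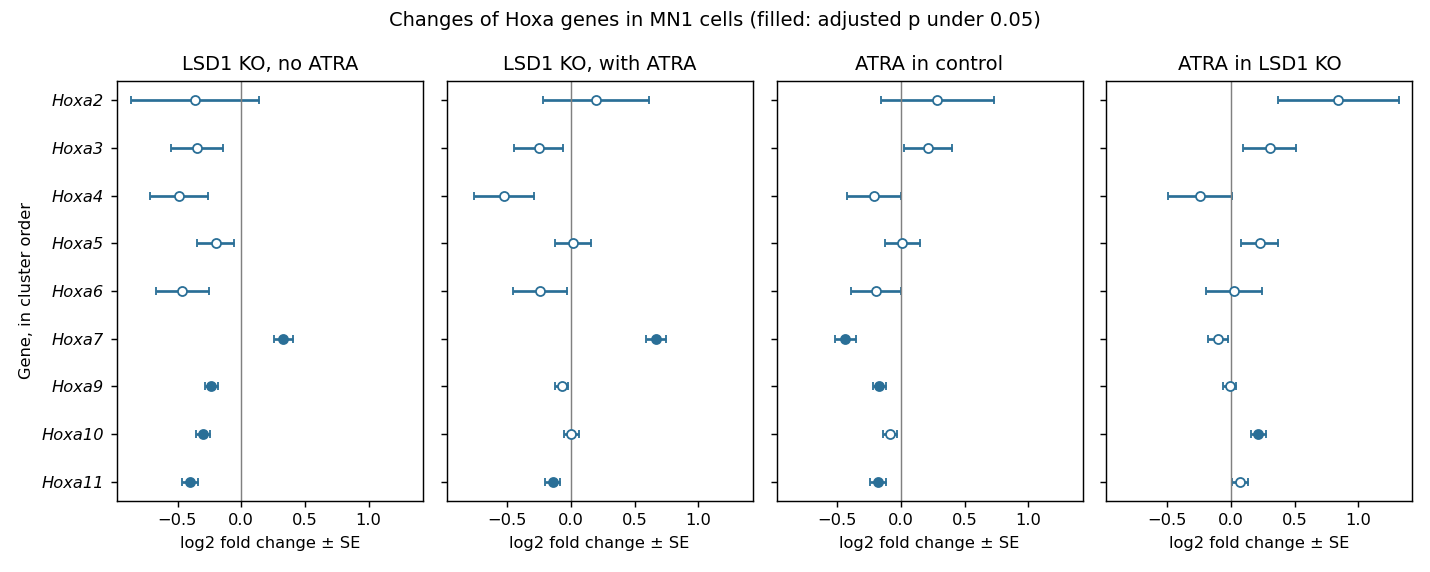
Log2 fold change ± SE of the 9 members in 4 MN1 comparisons; filled points passed an adjusted p of 0.05. Without ATRA, Hoxa7 lies right of 0 (0.33) and Hoxa9, Hoxa10 and Hoxa11 left of 0 (-0.23 to -0.40).

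A ratio inside each library does not depend on how libraries are scaled, so the members were also set against Hoxa10 of the same MN1 library. Hoxa7 had 9.83, 10.1 and 9.86 counts per 100 Hoxa10 counts in controls and 15.7, 14.8 and 15.6 in knockouts. With ATRA the values were 7.60, 8.48 and 7.33 in controls and 11.6, 13.3 and 12.4 in knockouts. Knockouts were above controls in each library, 1.55-fold without and 1.59-fold with ATRA in the mean, and ATRA groups were below untreated groups in both genotypes. In each of these 4 comparisons the exact two-sided permutation p was 0.1, the smallest that 3 against 3 libraries allow. Shifts of the other members were smaller. Hoxa9 per 100 Hoxa10 counts overlapped in 3 of these 4 comparisons (exact permutation p from 0.3 to 0.4), and was lower without overlap for ATRA in knockouts (0.857-fold, exact permutation p = 0.1). Hoxa11 per 100 Hoxa10 counts overlapped between knockout and control without ATRA (0.932-fold, exact permutation p = 0.2). In the other 3 it was lower without overlap (exact permutation p = 0.1 each): 0.903-fold for the knockout with ATRA, 0.938-fold for ATRA in controls and 0.909-fold for ATRA in knockouts. Such a ratio shows unequal change of a pair of genes, not which of them moved.

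**Figure D3:**
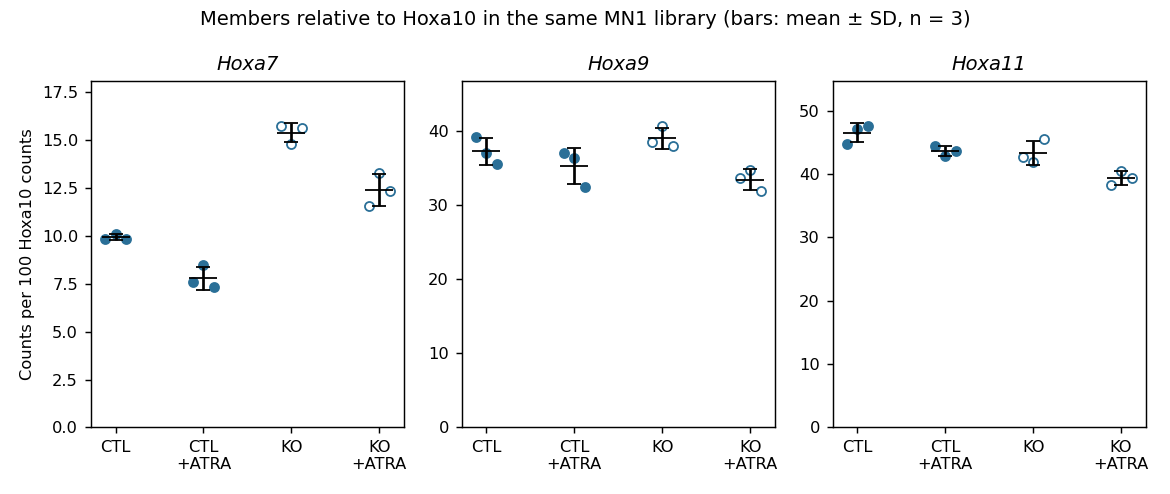
Counts of Hoxa7, Hoxa9 and Hoxa11 per 100 Hoxa10 counts in each MN1 library (points; bars are mean ± SD, n = 3). For Hoxa7 the 3 knockout libraries sit at 14.8 to 15.7 against 9.83 to 10.1 in controls, while Hoxa9 and Hoxa11 overlap between those groups.

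In H9M cells Hoxa9 was the member with counts enough to follow, and these counts may come from the transforming copy. H9M controls had 27861, 26992 and 27548 CPM and knockouts 22290, 23519 and 22493 CPM. The groups did not overlap (log2 fold change -0.26 ± 0.05, adjusted p = 2.21e-05), in a comparison where 51.5% of all genes were called, 26.1% higher and 25.4% lower. The knockout effect on Hoxa9 differed between MN1 and H9M cells by 0.02 ± 0.07 on the log2 scale (adjusted p = 0.872; 28.4% of all genes were called), although the levels lay far apart.

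ATRA raised Hoxa9 counts in H9M cells. With ATRA the controls had 36083, 36233 and 37779 CPM, all above the untreated controls (0.46 ± 0.05, adjusted p = 4.23e-09; 25.2% of all genes were called). Knockouts with ATRA had 31878, 37628 and 36056 CPM, all above the untreated knockouts (0.65 ± 0.05, adjusted p = 1.04e-12; 29.4% of all genes were called). The ATRA effect in controls was thus of opposite sign in the models, and the difference, MN1 minus H9M, was -0.62 ± 0.07 (adjusted p = 7.93e-08), where 13.8% of all genes were called. Meis1, the other transforming gene of H9M cells, also rose with ATRA, from 229 ± 7.05 to 319 ± 17.6 CPM in controls. Its counts too may come from the transforming copy, and it had 0 to 5 counts in MN1 libraries. Between knockout and control with ATRA, Hoxa9 had overlapping groups (-0.06 ± 0.05, adjusted p = 0.300; 51.1% of all genes were called), and it passed only without H9M KO with ATRA replicate 2 (adjusted p = 0.0400). The myeloid genes moved with these contrasts too. Their sum was 8514 to 8617 CPM in H9M controls, 3298 to 3344 CPM in controls with ATRA (2 of 8 called higher and 5 lower), 11291 to 11547 CPM in knockouts (6 of 8 higher) and 6972 to 7530 CPM in knockouts with ATRA. Their part in the Hoxa9 counts was not tested. The interaction of Hoxa9 in H9M cells did not pass (0.20 ± 0.06, adjusted p = 0.0795, with 5.04% of all genes called) but did without H9M KO with ATRA replicate 1 (adjusted p = 0.00226). Kdm1a was at 11.1 ± 0.654 CPM in H9M knockouts with ATRA and 0.962 ± 0.0313 CPM in those without. The interaction and the ATRA effect in H9M knockouts thus compare unequal Kdm1a levels. The part of this difference in the Hoxa9 counts was not tested.

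A call of Hoxa2 in H9M knockouts rested on 0, 1 and 4 counts against 0, 0 and 0 in controls (adjusted p = 0.0483). Hoxa5 had 0 to 1 counts per H9M control library with ATRA and 4, 2 and 4 counts in knockouts with ATRA (adjusted p = 0.0565). At this depth no more can be said of either gene in H9M cells.

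Of the neighbouring genes, Hotairm1, a noncoding gene of the cluster, had 5 to 20 counts per library in both models. Hoxa13 had 1 count over all 24 libraries. Outside the cluster, Hoxb3 (25 to 70 counts per library) and Hoxb4 (79 to 131) were read in H9M cells and had 0 counts in each MN1 library. Of 28 other Hox genes of the Hoxb, Hoxc and Hoxd clusters, 10 had a count in any library and 2, Hoxb3 and Hoxb4, were tested.

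Genes known to activate or silence the cluster changed in knockouts, mostly downward. The 20 listed activators held genes of MLL, menin and DOT1L complexes, and also others such as Kat7, Brpf1 and Nsd1. Of these 20 activators, 4 were called higher and 14 lower in MN1 knockouts, where 28.7% of all genes were called higher and 26.3% lower. Their median log2 fold change was -0.19 beside 0.01 over all genes tested. Mllt6 rose (0.75 ± 0.05), while Wdr5, a subunit of MLL complexes (-0.32 ± 0.03), and Mllt3, a reader that recruits DOT1L (-0.45 ± 0.05), fell. In H9M knockouts 3 were higher and 11 lower (median -0.23 beside 0.00), beside 26.1% and 25.4% of all genes, and the smallest adjusted p belonged to Mllt1 (-0.52 ± 0.04), Wdr5 (-0.37 ± 0.03) and Dot1l (-0.28 ± 0.04). Of 23 Polycomb genes, 4 were called higher and 13 lower in MN1 knockouts (median -0.20 beside 0.01), against the same shares of all genes. Ezh1, a methyltransferase of H3K27, went from 19.3 to 36.6 CPM (0.92 ± 0.05), and Jarid2 (-0.62 ± 0.05) and Cbx2 (-0.65 ± 0.06) fell. In H9M knockouts 3 Polycomb genes were higher and 12 lower, against the same shares of all genes in that comparison (median -0.13 beside 0.00), among them Cbx2 (-0.54 ± 0.06) and Rbbp4 (-0.20 ± 0.03). Activators and repressors thus moved the same way in the count, and their part in the changes of Hoxa genes was not tested.

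Of 9 TALE cofactor genes, 7 were tested. In MN1 knockouts 2 were higher and 3 lower, where 55.0% of all genes were called in either direction (median -0.08 beside 0.01). Meis2, a MEIS family factor, fell from 22.0 to 12.1 CPM (-0.87 ± 0.08), Pknox1 fell (-0.18 ± 0.04) and Pbx3, a frequent HOXA9 partner, rose (0.33 ± 0.08). ATRA in H9M controls gave 4 higher of 7 tested, where 12.9% of all genes were higher and 12.3% lower (median 0.24 beside 0.00). Meis1 (0.52 ± 0.05), Pknox1 (0.24 ± 0.04) and Meis3 (2.05 ± 0.47) had the smallest adjusted p. Meis1 counts in H9M cells may come from the transforming copy. Meis3 had 10 counts over the H9M controls and 38 over those with ATRA.

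Genes known as HOXA9 and MEIS1 targets went both ways. Of 22, MN1 knockouts had 10 higher and 7 lower, beside 28.7% and 26.3% of all genes (median 0.01, as over all genes), with Id2 (1.55 ± 0.06), Cd34 (0.59 ± 0.03) and Erg (0.61 ± 0.04) rising. In H9M knockouts 8 were higher and 8 lower, beside 26.1% and 25.4% of all genes (median -0.08 beside 0.00), with Cd34 (2.19 ± 0.03) and Erg (1.18 ± 0.04) rising and Kit falling from 268 to 133 CPM. With ATRA, H9M controls had 10 higher and 2 lower, beside 12.9% and 12.3% of all genes (median 0.08 beside 0.00), led by Igf1 (1.28 ± 0.05), Flt3 (0.88 ± 0.05) and Pim1 (0.32 ± 0.04). MN1 controls with ATRA had 7 higher and 6 lower, beside 11.4% and 10.4% of all genes.

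The genes whose levels ran most like those of Hoxa10 and Hoxa11 across libraries were found from log2(CPM + 0.5) after the mean of each model was removed, over 24 libraries and 11916 genes. Since both members are at 0 in H9M cells, only the 12 MN1 libraries add shared variation. The spread of a gene over the H9M libraries lowers its r, so genes that vary little there are favoured. For Hoxa10 they were Il1rap (Pearson r 0.755), Ccdc8 (0.744), Flrt2 (0.742), Slc39a3 (0.735) and Gm4202 (0.728). For Hoxa11 they were Mtss1l (0.858), Frmpd1 (0.841), Wrn (0.837), Tll1 (0.819) and Khdrbs3 (0.816). The libraries share their groups, so these values are a description.

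H3K4me2 was read along the cluster in lineage-negative bone marrow, in 8949072 kept reads of GFI1-WT and 9538627 of GFI1-KD. GFI1 is a transcriptional repressor that works with LSD1. With 1 library each there is no replicate check and no test, and the mark comes from other cells than the RNA. Values are RPM (reads-per-million) from kept reads in the 2 kb around each start, and intervals are 95% counting intervals.

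Over all windows with enough reads the median ratio of GFI1-KD to GFI1-WT was 0.988, and the share above 1 was not counted. In these single libraries the mark was higher in GFI1-KD at the neighbouring members listed here. At Hoxa7 it was 13.9 RPM in GFI1-WT (124 reads) and 27.6 in GFI1-KD (263 reads), a ratio of 1.99 (1.60 to 2.48). At Hoxa9 it was 12.9 (115 reads) and 23.4 (223 reads), a ratio of 1.82 (1.45 to 2.30). At the start of Hoxa10 whose sequence is printed it was 4.80 (43 reads) and 9.12 (87 reads), a ratio of 1.90 (1.30 to 2.80). Its other start gave 1.49 (1.07 to 2.09). Hoxa11 gave 1.92 (1.46 to 2.56), Hoxa6 1.92 (1.47 to 2.52) and Hoxa3 1.63 (1.40 to 1.89). Hoxa4, counted over its gene span, gave 1.59 (1.25 to 2.04).

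Hoxa2 was close to 1, with 43 and 45 reads and a ratio of 0.982 (0.632 to 1.53). Hoxa5 went the other way, from 30 to 11 reads, a ratio of 0.344 (0.156 to 0.706). It was the 1 member past 2-fold at its start, where 10.3% of 18334 windows with enough reads were past 2-fold, 6.11% higher and 4.20% lower. Over all those windows the median ratio was 0.988, with a 5th percentile of 0.554 and a 95th percentile of 2.14, so the ratios of 1.49 to 1.99 at the starts of Hoxa3, Hoxa6, Hoxa7, Hoxa9, Hoxa10 and Hoxa11 lie above the median and inside that range. Over gene spans, where 10.6% of genes were past 2-fold, 4.50% higher and 6.13% lower, Hoxa6 (2.35) and Hoxa7 (2.14) were past it upward and Hoxa5 (0.407) downward. In the plot of bins of 1 kb the highest bin lay by the Hoxa3 start, with 178 reads in GFI1-WT and 271 in GFI1-KD.

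**Figure D4:**
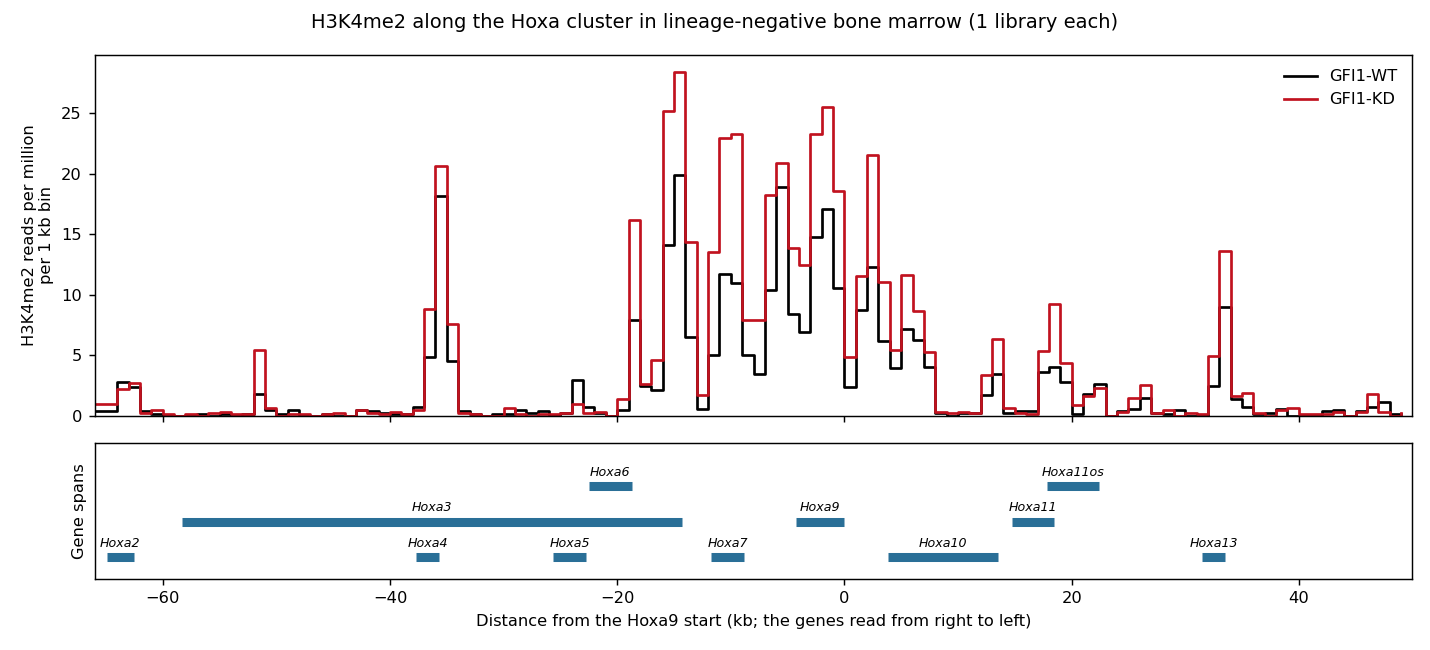
H3K4me2 RPM in 1 kb bins by distance from the Hoxa9 start (kb), in GFI1-WT (black) and GFI1-KD (red), 1 library each, above the spans of the genes. The red line runs above the black one over most peaks, from 19.9 to 28.4 RPM in the highest bin by Hoxa3, and below it at Hoxa5.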

How the data were processed

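Gene counts were deposited as whole numbers in one table of 24 RNA libraries. Per the submitters' processing notes, STAR 2.5.3 and mm10 were used for the stranded total RNA reads; no source used here names the counter or the strand it used. The deposited H3K4me2 files hold 1 aligned read per line with a score, its mapping quality (CASAVA 1.8.2, BWA and bedtools 2.27.0, per the submitters' processing notes).

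Counts were normalised by TMM, filtered by filterByExpr (14663 of 48795 genes) and fitted over 8 groups in edgeR 4.0.16 (R 4.3.3; glmQLFit, glmQLFTest, 16 residual degrees of freedom), with Benjamini-Hochberg adjustment within each comparison. The fit was tested on simulated data. Symbols were matched by Ensembl ID (48349 of 48795). Replicate libraries differed beyond sampling noise. H3K4me2 reads with mapping quality of at least 10 were counted once per position and strand. Ratios are given with at least 20 reads over both libraries. Promoters are from RefSeq (GRCm38.p6).

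The text names all 9 members, Kdm1a, from each list up to 3 genes by adjusted p, and the 5 genes most like Hoxa10 and Hoxa11; Hoxb3, Hoxb4 and Cdx genes come from lists of neighbouring and upstream genes. Members and lists were chosen with earlier results of these data known. Alternatives were RLE scaling, DESeq2 1.42.0, other filters, 1 model alone, a replicate block, each library left out, and Hoxa9, Meis1 and Mn1 left out of totals. Some genes of the lists are not reported here.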

Additional observations from a re-analysis of the deposited data

Results flagged for a closer look

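The knockout effect on Hoxa10 in MN1 cells differed with ATRA by 0.30 ± 0.08 on the log2 scale (edgeR, adjusted p = 0.0447): Hoxa10 was lower in each of 3 knockout libraries without ATRA, and the groups overlapped with ATRA. Without any of MN1 CTL replicates 1 or 3, MN1 CTL with ATRA replicate 1, MN1 KO replicates 1 or 2, or MN1 KO with ATRA replicates 1 or 3, this difference did not pass (adjusted p = 0.0722, 0.124, 0.122, 0.120, 0.119, 0.116 and 0.105). The ATRA effect on Hoxa9 in controls differed between the models by -0.62 ± 0.07, MN1 minus H9M (edgeR, adjusted p = 7.93e-08), being -0.17 in MN1 and 0.46 in H9M cells, where the counts may come from the transforming copy.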

How the results depend on the processing

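Over 75 values of single members and 999 alternative values, 951 stayed on the same side of the threshold, 35 lost and 13 gained a call. Of the 951, 26 had the other sign, all for values that were not called; no called value changed sign. The 4 calls in MN1 knockouts without ATRA (Hoxa7, Hoxa9, Hoxa10 and Hoxa11) held in each alternative that gave a value, with adjusted p of at most 0.0104. For MN1 knockouts with ATRA, 2 members called became 1 with RLE scaling, with DESeq2 and with a filter of 1 CPM in 3 libraries, each time by loss of Hoxa11 (adjusted p = 0.120, 0.149 and 0.109), which was also lost with Hoxa9, Meis1 and Mn1 left out of the totals (0.108); it became 3 with a fit of 1 model alone (Hoxa4 added) and with no filter on low counts (Hoxa9 added). For H9M knockouts, 2 became 1 with no filter on low counts, with the 1 CPM filter and with a fit of 1 model alone; in each case Hoxa2 lost its call or its place in the test. With no filter on low counts the interaction in H9M cells went from 0 to 1 member (Hoxa9) and that in MN1 cells from 1 to 3 (Hoxa9 and Hoxa11 added). The count of member starts past 2-fold in H3K4me2 went from 1 to 3 over gene spans and to 2 with scaling to the median ratio. Leaving out 1 library at a time gave 1 to 2 members in H9M knockouts, 0 to 2 in H9M knockouts with ATRA, 1 to 2 in MN1 knockouts with ATRA, 1 to 3 for ATRA in MN1 controls, 0 to 1 for ATRA in MN1 knockouts, 0 to 1 for the H9M interaction and 0 to 2 for the MN1 interaction. Libraries with the same replicate number did not deviate together (r from -0.0749 to 0.0773 over both models), so the numbers were not taken as pairs; with a replicate block the MN1 interaction had 2 members called, Hoxa10 and Hoxa11, in place of 1. Low counts limit Hoxa2 to Hoxa6, with at most 4 counts in any H9M library.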
